A study of Homo sapiens with 12 samples.

Results

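The 3 CYP1 enzymes and the genes of the aryl hydrocarbon receptor that controls them were followed through 4 treatment arms of C4.2B cells, an established prostate cancer line of the castration-resistant type. The members were 8 named genes, and all 8 were found among the 23228 genes of the count files: CYP1A1, CYP1A2, CYP1B1, AHR, AHRR, ARNT, TIPARP and NQO1. The group was chosen by the change of CYP1A2 in GSK and COMBO, so every CYP1A2 value is a description and carries no test. The other 7 genes were taken from their known place around the receptor. Earlier results of these data were known when they were listed, so their calls may not be independent of that choice. The comparisons ask whether CYP1A2 moved alone or with other targets of the receptor.

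The 4 arms held 3 libraries each (A, B and C) of polyA RNA. DMSO was the vehicle arm, GDC received 0.5 µM GDC-0941, which inhibits all class I PI3K enzymes, GSK received 5 µM GSK126, an inhibitor of EZH2, and COMBO received both at these doses. The compounds were given for 24 h, and all 4 arms were kept in 10% charcoal-stripped serum. Cells of GSK and COMBO had been exposed to GSK126 for 6 days beforehand, so an effect of EZH2 inhibition and an effect of longer exposure to this compound cannot be told apart. EZH2 is the enzyme of the Polycomb complex that places a repressive methyl mark on histone H3. All libraries came from 1 cell line, plated in triplicate, so p-values measure the spread between plates.

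The aryl hydrocarbon receptor, encoded by AHR, is a transcription factor of the bHLH-PAS family that binds dioxins, polycyclic aromatic hydrocarbons and tryptophan metabolites. It waits in the cytoplasm with the chaperone HSP90, moves to the nucleus when a ligand binds, pairs with ARNT and binds DNA at a short core motif. Its best known targets are the monooxygenases CYP1A1, CYP1A2 and CYP1B1, together with AHRR and TIPARP, which both restrain the receptor. CYP1A2 is known mainly as an enzyme of the liver, where it clears caffeine.

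CYP1A1 (chr15:74719542-74725536, minus strand) and CYP1A2 (chr15:74748845-74756607, plus strand) are neighbours that are transcribed away from each other, and their starts lie 23.3 kb apart (hg38, GENCODE 44). Reads were counted over whole genes, so no exon, intron or UTR is resolved. Because the results turn on this pair and on AHRR, the 250 bases before the start of each are shown 5′ to 3′ on the gene's own strand (RefSeq, GRCh38.p14), with a further stretch upstream of CYP1A1. The windows are chr15:74725529-74725778 on the minus strand for CYP1A1, chr15:74748595-74748844 on the plus strand for CYP1A2, chr5:321464-321713 on the plus strand for AHRR, and chr15:74726504-74726793 on the minus strand for the CYP1A1 stretch (hg38). Capitals mark the receptor's core motif GCGTG or its reverse complement CACGC.
CYP1A1: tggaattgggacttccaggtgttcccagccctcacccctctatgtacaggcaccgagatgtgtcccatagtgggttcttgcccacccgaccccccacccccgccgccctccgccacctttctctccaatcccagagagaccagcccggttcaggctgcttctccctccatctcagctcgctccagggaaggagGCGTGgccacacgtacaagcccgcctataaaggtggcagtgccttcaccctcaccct
CYP1A2: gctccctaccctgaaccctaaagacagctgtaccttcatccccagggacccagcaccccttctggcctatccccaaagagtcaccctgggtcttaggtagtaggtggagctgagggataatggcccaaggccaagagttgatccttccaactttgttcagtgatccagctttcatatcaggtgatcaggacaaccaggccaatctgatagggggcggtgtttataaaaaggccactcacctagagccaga
AHRR: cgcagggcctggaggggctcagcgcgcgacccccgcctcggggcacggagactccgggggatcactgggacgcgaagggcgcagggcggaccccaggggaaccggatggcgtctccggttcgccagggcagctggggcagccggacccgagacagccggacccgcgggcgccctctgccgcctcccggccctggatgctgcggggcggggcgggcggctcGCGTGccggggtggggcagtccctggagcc
CYP1A1 upstream stretch: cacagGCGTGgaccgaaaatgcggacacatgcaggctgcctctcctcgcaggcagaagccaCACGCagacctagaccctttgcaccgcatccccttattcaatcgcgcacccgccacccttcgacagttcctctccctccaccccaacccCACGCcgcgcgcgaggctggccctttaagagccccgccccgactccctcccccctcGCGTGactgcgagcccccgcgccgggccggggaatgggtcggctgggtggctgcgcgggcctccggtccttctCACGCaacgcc

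The core was searched on both strands in 2 windows around the first listed start of each gene, and the longer form TNGCGTG, which contains the core, was searched in the same way. Of the 8 genes, 7 had a window. From 250 bases before to 50 after the start, the core occurred 1 time in CYP1A1, AHR, AHRR and NQO1, 2 times in TIPARP, and 0 times in CYP1A2 and ARNT. Among 27305 promoters 36.3% held it, and 5.51% held the longer form, as AHRR and NQO1 did. From 1500 bases before to 50 after the start, CYP1A1 held 10 cores, and 5 of the occurrences were of the longer form. Only 0.685% of these promoters held as many cores. In the same window the count was 1 in CYP1A2, 1 in AHR, 4 in AHRR, 5 in ARNT, 6 in TIPARP and 3 in NQO1, and 73.2% of promoters held at least 1. The shown stretch of CYP1A1, at positions -1265 to -976 from the start, carries 5 of its 10 cores. A match describes the letters and is not a measured binding site.

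Depth in genes ran from 8785218 to 44437751 counts per library, with the widest spread in DMSO. The share of reads that fell in genes was 75.8% ± 0.456 for DMSO, 74.1% ± 0.214 for GDC, 70.7% ± 0.494 for GSK and 67.6% ± 1.17 for COMBO (SD, n = 3), so it moved with the arms. Its part in the results was not tested. Levels are CPM, which are counts scaled to library size by TMM, or the same per kb of exon (RPKM) where genes are compared with each other. A gene with no count could hold up to 3 counts, which is 0.0675 to 0.341 CPM, and this limit covers counting error only. Prostate markers were present, since KLK3, KLK2, HOXB13, FOLH1, TMPRSS2 and STEAP2 averaged at least 1 CPM in every arm.

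In DMSO the 8 genes spanned a wide range of RPKM. NQO1 stood highest at 104.5 ± 4.94, followed by ARNT at 15.2 ± 0.616, TIPARP at 3.15 ± 0.394, AHR at 1.28 ± 0.176, CYP1B1 at 1.18 ± 0.0403, CYP1A1 at 0.655 ± 0.0666, AHRR at 0.224 ± 0.0256 and CYP1A2 at 0.112 ± 0.0358 (mean ± SD, n = 3). AHR and CYP1B1 differed by less than the SD of AHR. In COMBO the order changed, with CYP1A2 second at 19.0 ± 0.905 RPKM between NQO1 at 64.5 ± 0.888 and ARNT at 18.1 ± 0.0428. CYP1A2 and ARNT differed there by less than the SD of CYP1A2. CYP1A1 followed at 7.38 ± 0.196, TIPARP at 3.91 ± 0.232, AHR at 2.79 ± 0.181, AHRR at 0.802 ± 0.0883 and CYP1B1 at 0.494 ± 0.0594. CYP1A2 thus went from the lowest to the second highest level of the group, and CYP1B1 became the lowest.

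**Figure D1:**
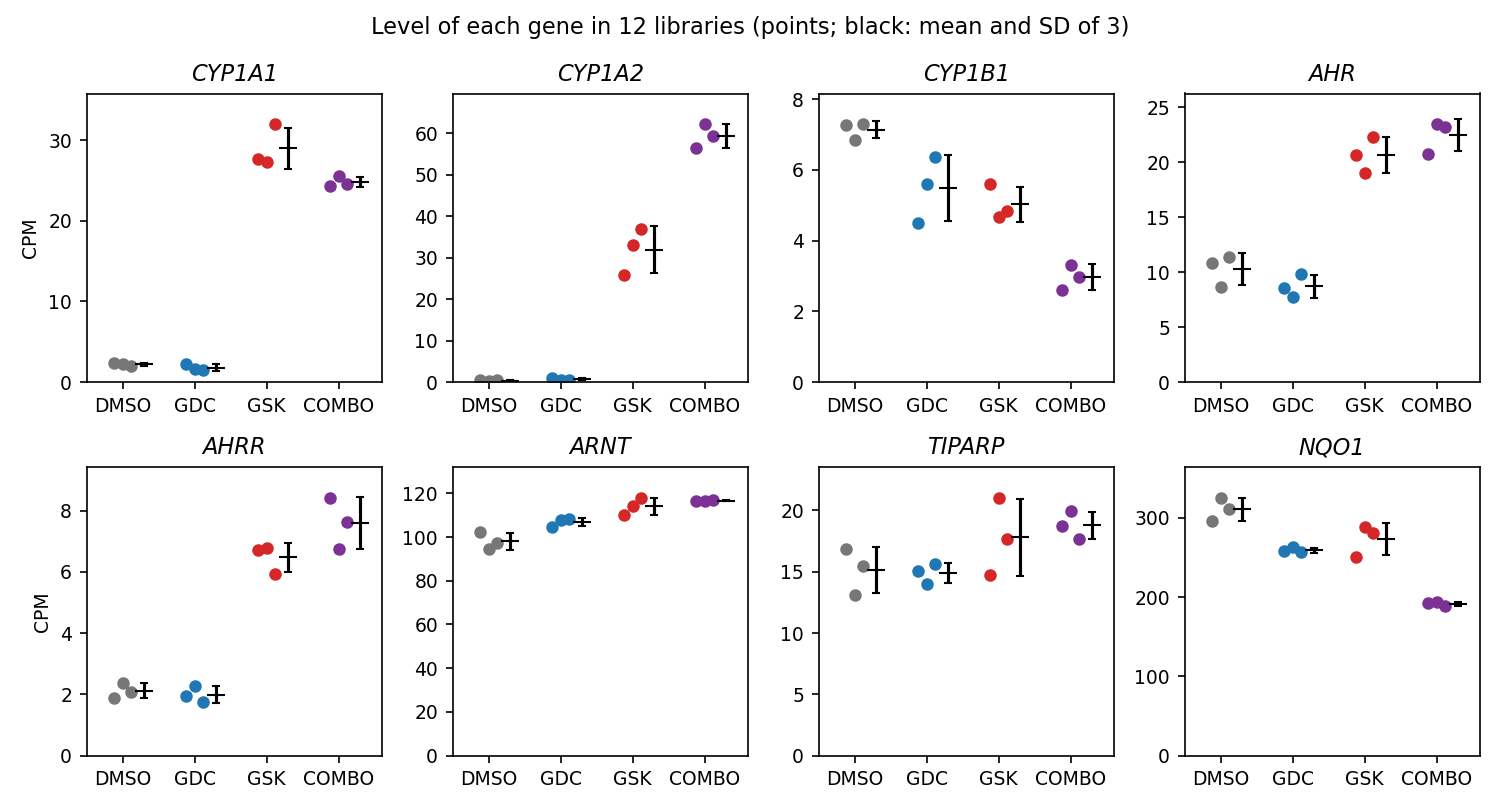
Level of each of the 8 genes (CPM, vertical axis from 0, with its own scale per gene) in the 12 libraries of DMSO, GDC, GSK and COMBO. Coloured points are libraries A, B and C from left to right, and black marks are the mean and SD of 3. CYP1A1, CYP1A2, AHR and AHRR are high in all 6 libraries that received GSK126, while CYP1B1 and NQO1 are lowest in COMBO.

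Among the 7 genes other than CYP1A2, 5 went up and 2 went down in each of the 2 arms that received GSK126. CYP1A1, AHR, AHRR, ARNT and TIPARP rose, and CYP1B1 and NQO1 fell. In GSK against DMSO 7 of 7 were called (edgeR quasi-likelihood test, adjusted p under 0.05), where 75.8% of all 14189 tested genes were called, 40.0% higher and 35.8% lower. That count was 6 with DESeq2 and with library totals, and the TIPARP call in GSK was lost in 15 of 19 alternative settings. In COMBO against DMSO 7 of 7 were called against a background of 82.5%, with 43.3% higher and 39.2% lower. Calls were thus the rule for any gene in these arms. In GDC against DMSO 3 of 7 were called, 1 higher and 2 lower, and the background was 40.1%. GSK and COMBO were both compared with the same DMSO libraries, so their changes share that reference. In bulk RNA, more cells that express a gene and more transcript per cell cannot be told apart.

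CYP1A1, which oxidizes polycyclic aromatic hydrocarbons and is the classical readout of the receptor, had 2.42, 2.21 and 1.97 CPM in DMSO A, B and C. It had 2.30, 1.60 and 1.54 CPM with GDC, 27.7, 27.3 and 31.9 with GSK, and 24.3, 25.5 and 24.5 with COMBO. The libraries with and without GSK126 did not overlap. CYP1A1 rose by 3.78 ± 0.12 on the log2 scale in GSK (± SE, adjusted p = 6.28e-16), a 13.7-fold difference, and by 3.55 ± 0.12 in COMBO (adjusted p = 2.44e-16). These changes stood 125th and 213th from the top of the 14189 tested genes. In GDC its change was -0.25 ± 0.19 and did not pass (adjusted p = 0.339).

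CYP1A2, the adjacent gene, was at the edge of detection without GSK126. The 3 DMSO libraries held 4, 4 and 17 reads (A, B and C, of which C was sequenced most deeply), and the GDC libraries 11, 10 and 9. The GSK libraries held 235, 420 and 435 reads, and the COMBO libraries 974, 1402 and 816. In CPM these were 0.421, 0.221 and 0.409 in DMSO, 0.972, 0.616 and 0.603 with GDC, 25.8, 33.2 and 36.8 with GSK, and 56.5, 62.2 and 59.4 with COMBO. All 4 arms were free of overlap, in the order DMSO, GDC, GSK and COMBO. The log2 fold change against DMSO was 6.45 ± 0.19 (95% interval 6.06 to 6.85) in GSK and 7.33 ± 0.17 (6.98 to 7.69) in COMBO. These were the 9th and the 2nd highest of all tested genes, by the measure that chose the topic. The SE is derived from the F statistic of the fit, and both intervals are narrower than the counting intervals below, so they understate the uncertainty.

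Pooled over libraries, CYP1A2 counts scaled to depth stood at 89.9 times DMSO in GSK (exact 95% counting interval 60.5 to 139) and 165 times in COMBO (112 to 255). In GDC the ratio was 1.95 (1.11 to 3.47), on 30 reads against 25. These counting intervals leave out the spread between plates, so they are too narrow and are not a test. The log2 change in GDC was 0.96 ± 0.44 (95% interval 0.04 to 1.87). Only the arms with GSK126 carried CYP1A2 past the low-count filter. CYP1A2 and CYP1A1 are paralogues, and 63 of 3104 words of 25 bases in the CYP1A2 transcripts also occur in those of CYP1A1, falling to 7 of 3097 at 36 bases and 0 of 3083 at 50. The read length is not given in the sources used here.

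**Figure D2:**
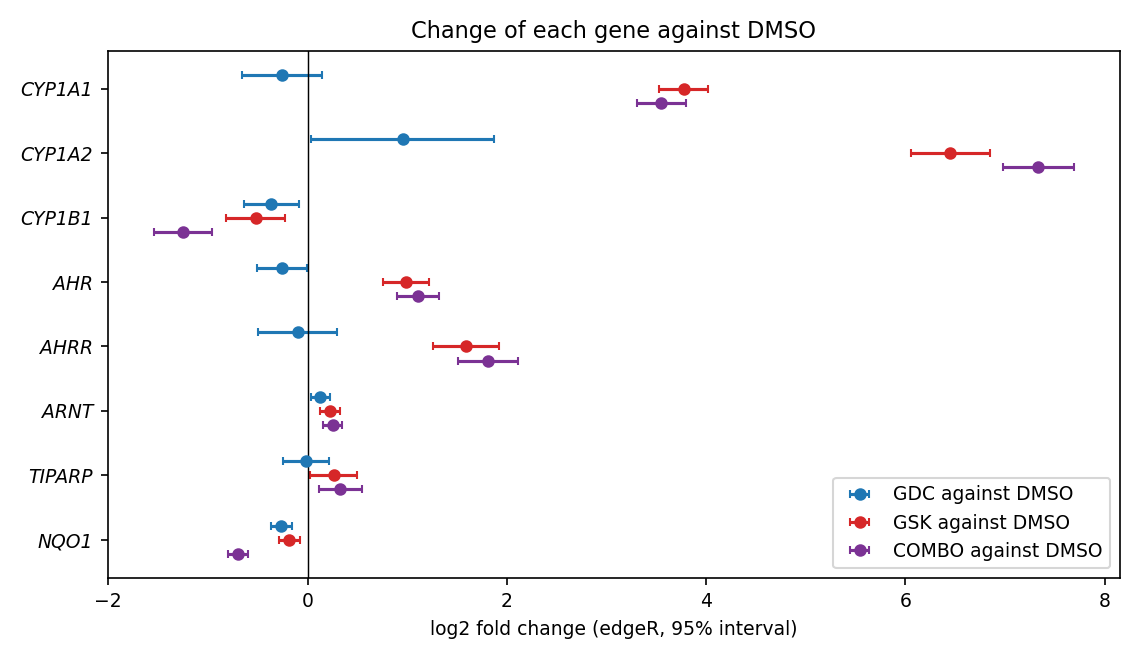
Log2 fold change against DMSO (horizontal axis) of each gene in GDC, GSK and COMBO, with 95% intervals derived from the F statistic of the edgeR fit. Those of CYP1A2 in GSK and COMBO are narrower than its counting intervals. CYP1A2 at 6.45 and 7.33 and CYP1A1 at 3.78 and 3.55 lie far to the right, AHRR and AHR follow, ARNT and TIPARP lie just above 0, and CYP1B1 and NQO1 lie below 0.

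The pair did not rise in a fixed proportion. Within each library the CYP1A2 level per kb of exon was divided by that of CYP1A1. The ratio was 0.172 ± 0.0589 in DMSO (range 0.107 to 0.222) and 0.429 ± 0.0221 in GDC (0.413 to 0.454). It was 1.18 ± 0.159 in GSK (1.0 to 1.30) and 2.57 ± 0.0642 in COMBO (2.49 to 2.61; SD, n = 3). The 4 arms did not overlap, and CYP1A2 was the less abundant transcript without GSK126 and the more abundant one in COMBO. These ratios include the gene that chose the topic and are given without a test.

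**Figure D3:**
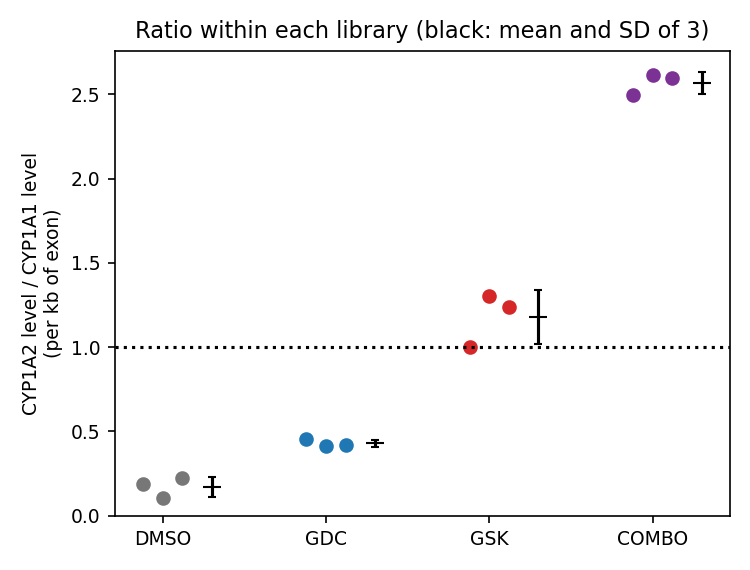
Level of CYP1A2 per kb of exon divided by that of CYP1A1 in the same library (vertical axis, from 0), for the 3 libraries of each arm, with mean and SD in black and a dotted line at 1. The ratio lies near 0.172 in DMSO, 0.429 with GDC, 1.18 with GSK and 2.57 with COMBO.

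COMBO against GSK shows what the PI3K inhibitor did to these genes in cells that had GSK126. CYP1A2 differed by 0.88 ± 0.09 on the log2 scale (95% interval 0.70 to 1.07), with COMBO higher. For CYP1A1 the difference was -0.22 ± 0.08 (adjusted p = 0.0360), so it fell in COMBO, but this call was lost in 16 of 19 alternative settings. It held in 1 of 12 fits that left out a library, that without GDC A, and in the other 11 the change was -0.24 to -0.15. CYP1B1 and NQO1 also fell between these arms, and 3 of 7 genes were called against a background of 45.9%. In COMBO against GDC all 7 were called, against 76.0% of all genes, and CYP1A1 rose by 3.81 ± 0.13 (adjusted p = 1.19e-15). The interaction, which is COMBO minus GDC minus GSK plus DMSO on the log2 scale, was 0.03 ± 0.21 for CYP1A1 (adjusted p = 0.955; 95% interval -0.40 to 0.46) and -0.07 (-0.87 to 0.72) for CYP1A2. The CYP1A2 interval is too narrow, since its SE of 0.38 is below the 0.44 of GDC against DMSO, which it contains. The interaction was called in 1 of 7 genes, NQO1, against a background of 21.4%.

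CYP1B1 (chr2:38066973-38109902), which hydroxylates estradiol and is common in tissues outside the liver, went the other way from CYP1A1. It had 7.26, 6.85 and 7.29 CPM in DMSO, 4.51, 5.60 and 6.37 with GDC, 5.60, 4.66 and 4.83 with GSK, and 2.61, 3.33 and 2.98 with COMBO. Every treated library lay below every DMSO library, and COMBO lay below both single agents. CYP1B1 fell by 0.52 on the log2 scale in GSK (SE 0.14, adjusted p = 0.00268) and by 1.25 in COMBO (SE 0.14, adjusted p = 7.66e-08). It fell by 0.73 in COMBO against GSK (SE 0.16, adjusted p = 0.00110) and by 0.89 in COMBO against GDC (SE 0.15, adjusted p = 3.05e-05). Its change in GDC, -0.36 ± 0.13 (adjusted p = 0.0345), was lost without DMSO C (-0.37, adjusted p = 0.0887), without GDC A (-0.30, adjusted p = 0.108), with library totals and with DESeq2. CYP1B1-AS1, which overlaps CYP1B1 on the other strand, had 15 reads in all 12 libraries together and was not tested.

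The receptor itself, AHR (chr7:16916359-17346152), rose. AHR had 10.8, 8.68 and 11.3 CPM in DMSO and 8.57, 7.76 and 9.85 in GDC, against 20.6, 19.0 and 22.3 in GSK and 20.8, 23.4 and 23.1 in COMBO. The libraries with GSK126 stood apart from the rest, while DMSO overlapped GDC and GSK overlapped COMBO. The log2 change was 0.99 ± 0.11 for GSK (adjusted p = 8.72e-08) and 1.11 ± 0.10 for COMBO (adjusted p = 3.70e-09), or 1.98-fold and 2.16-fold. Against GDC, COMBO was higher by 1.36 ± 0.11 (adjusted p = 8.46e-10). In GDC against DMSO the change was -0.25 ± 0.12 and did not pass (adjusted p = 0.101), though it passed without DMSO B (-0.40, adjusted p = 0.0117), without GDC C (-0.39, adjusted p = 0.0314) and with no filter. The AHR interaction, 0.38 ± 0.16 (adjusted p = 0.0942), passed with no filter (0.48), without DMSO B (0.55), without GDC C (0.54) and without COMBO A (0.50), and in none of the other alternatives.

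ARNT (chr1:150809713-150876708), the partner with which the receptor binds DNA, changed little. It had 102, 94.6 and 97.1 CPM in DMSO, 105, 108 and 108 with GDC, 110, 114 and 118 with GSK, and 116, 117 and 117 with COMBO. Each treated arm lay above DMSO without overlap. ARNT rose by 0.22 ± 0.05 on the log2 scale in GSK (adjusted p = 0.000247) and by 0.25 ± 0.05 in COMBO (adjusted p = 3.91e-05). Its change of 0.13 ± 0.05 in GDC (adjusted p = 0.0318) was lost in 15 of 19 settings, among them 11 of the 12 fits that left out a library, where it was 0.07 to 0.12 (that without GSK C kept it). The rise of 0.12 ± 0.05 in COMBO against GDC (adjusted p = 0.0202) was lost without COMBO C, at 0.10 (adjusted p = 0.0990).

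AHRR (chr5:321714-438291) encodes a repressor that competes with the receptor for ARNT, and it is itself induced by the receptor. It had 1.89, 2.38 and 2.09 CPM in DMSO, 1.94, 2.28 and 1.74 with GDC, 6.70, 6.79 and 5.93 with GSK, and 8.41, 6.74 and 7.64 with COMBO. DMSO and GDC overlapped, GSK and COMBO overlapped, and these pairs of arms lay apart. AHRR rose by 1.59 ± 0.16 in GSK (adjusted p = 1.70e-08) and by 1.82 ± 0.14 in COMBO (adjusted p = 3.51e-10), or 3.01-fold and 3.52-fold. Its difference of 0.22 ± 0.13 between COMBO and GSK did not pass (adjusted p = 0.180; 95% interval -0.05 to 0.50). The annotated readthrough gene PDCD6-AHRR overlaps AHRR on the same strand, so reads of the pair may be divided uncertainly.

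TIPARP (chr3:156673235-156706770), a mono-ADP-ribosyltransferase that modifies the receptor and limits its action, differed little between the arms. It had 16.8, 13.1 and 15.5 CPM in DMSO, 15.02, 14.0 and 15.6 with GDC, 14.7, 21.0 and 17.7 with GSK, and 18.7, 19.9 and 17.7 with COMBO. The GSK and DMSO libraries overlapped, whereas COMBO lay above DMSO. TIPARP rose by 0.33 ± 0.10 in COMBO (adjusted p = 0.00665), a call lost without DMSO B at 0.24 (adjusted p = 0.0516). Its change of 0.26 ± 0.11 in GSK (adjusted p = 0.0391) was lost in 15 of 19 settings and in 11 of 12 fits without a library, where it was 0.08 (without GSK B) to 0.28, and only the fit without GSK A kept it. TIPARP-AS1, which overlaps TIPARP on the opposite strand, rose by 1.59 ± 0.22 in COMBO (adjusted p = 1.35e-06), from 0.887 ± 0.146 to 2.63 ± 0.327 CPM. The use of strand in counting is not given, so reads of these overlapping genes cannot be told apart.

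NQO1 (chr16:69706996-69726668), a quinone reductase that is a target of both the receptor and the oxidative stress factor NRF2, fell. It had 296, 325 and 311 CPM in DMSO, 258, 263 and 257 with GDC, 251, 289 and 281 with GSK, and 193, 193 and 188 with COMBO. All treated libraries lay below DMSO, and COMBO lay below all others. NQO1 fell by 0.26 on the log2 scale in GDC (SE 0.05, adjusted p = 0.000328), by 0.18 in GSK (SE 0.05, adjusted p = 0.00249) and by 0.70 in COMBO (SE 0.05, adjusted p = 6.79e-11). It also fell by 0.51 in COMBO against GSK (SE 0.05, adjusted p = 7.87e-08). The decrease in GSK was -0.03 (adjusted p = 0.584) when libraries were scaled by their totals. The interaction was -0.25 ± 0.07 (adjusted p = 0.0145), and it was lost in 8 of 12 fits without a library, at -0.20 to -0.14. Those without DMSO B, GSK A, GSK C or COMBO C kept it.

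CYP1A2 did not move alone, and the targets divided. CYP1A1 and AHRR rose with it, TIPARP rose slightly in COMBO, and CYP1B1 and NQO1 fell. A wider list of 16 other receptor targets was read in the same way, of which 7 passed the low-count filter. Of these, GSTA1, GSTA2 and XDH passed through the GSK126 arms only, so their high values were needed for a test at all and they are given without one. Here and for the lists that follow, genes that passed through only the arms with GSK126, or only those without it, are left out of counts and medians. That left 12956 of all tested genes, of which 43.0% were called in GDC, 75.8% in GSK and 82.4% in COMBO. By direction, 4797 were called higher and 5019 lower in GSK, and 5182 higher and 5490 lower in COMBO. Of the 4 remaining targets, 3 were called in GDC, all lower, 3 in GSK, 1 higher and 2 lower, and 4 in COMBO, 1 higher and 3 lower. Their median log2 change was -0.66 in GSK and -1.01 in COMBO, beside 0.00 and -0.02 for all genes counted in this way. Over all 7 tested targets, with the 3 that were left out, the medians were 2.22 and 2.28, so the sign depends on leaving them out.

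CYP2S1, a P450 gene, was the 1 remaining target that rose, by 2.22 in GSK and by 2.28 ± 0.21 in COMBO (adjusted p = 3.36e-09). SLC7A5, an amino acid transporter, and STC2, a secreted glycoprotein, fell in both arms, and the drug exporter ABCG2 fell in COMBO. XDH, which encodes xanthine dehydrogenase, had 0.239 ± 0.179 CPM in DMSO, 4.50 ± 0.229 with GSK and 4.07 ± 0.694 with COMBO. The glutathione transferase GSTA1 had 0.562 ± 0.0417, 4.94 ± 1.81 and 5.09 ± 0.265 CPM in the same arms, and GSTA2 had 0.0953 ± 0.0857, 1.53 ± 0.232 and 1.22 ± 0.367. GSTA1 and GSTA2 are near-identical paralogues, so their reads may be shared. The untested members included the classical targets ALDH3A1, UGT1A1 and UGT1A6, with at most 10, 8 and 8 reads in any library.

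**Figure D4:**
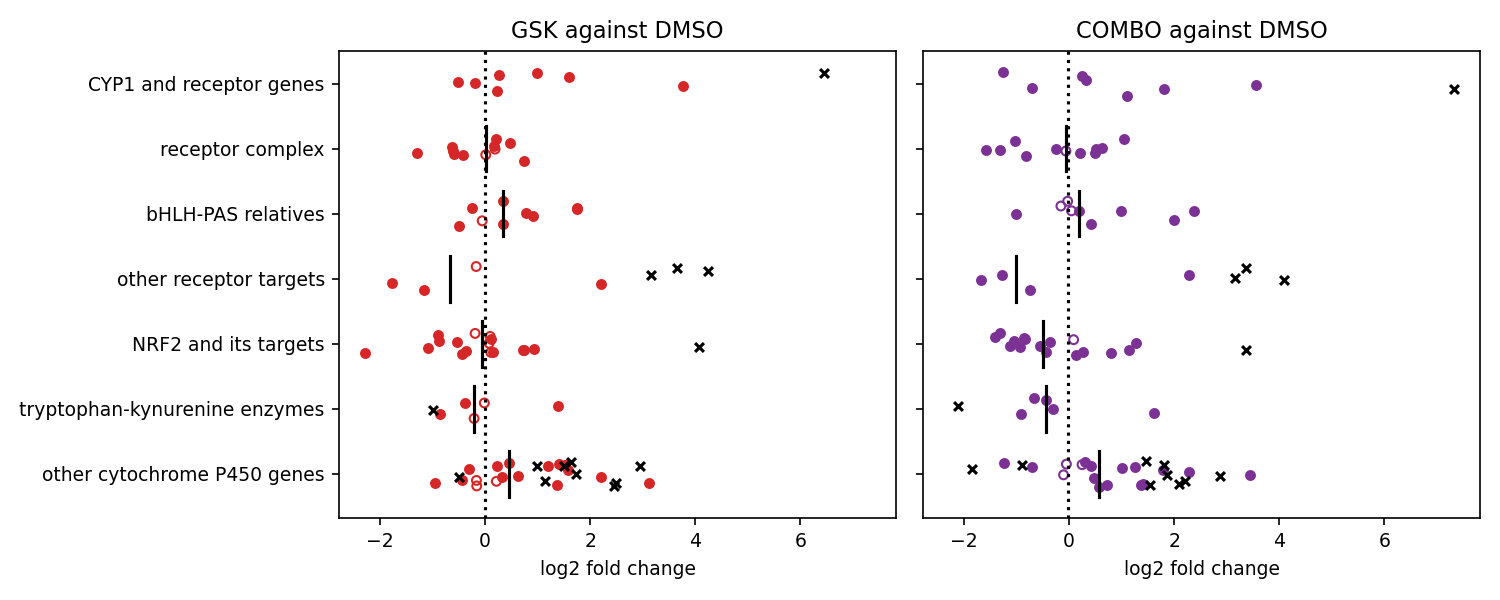
Log2 fold change in GSK (left) and COMBO (right) against DMSO for the 8 genes and 6 lists of related genes. Filled points passed the test (adjusted p under 0.05), open points did not, and crosses are genes, CYP1A2 among them, that passed the low-count filter only through the arms with GSK126 or only through those without it. The short black line is the median of a list without the crosses, not drawn for the 8 genes, and the dotted line is the same over all tested genes. The median of the other receptor targets, at -0.66 and -1.01, lies to the left of the dotted line, while 3 crosses of that list lie to the right.

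The proteins that hold, activate or degrade the receptor were all tested. Of 11 genes, 9 were called in GSK, 4 higher and 5 lower (background 75.8%), and 10 in COMBO, 5 higher and 5 lower (82.4%), with medians of 0.01 and -0.06. In GDC 4 were called, beside 43.0% of all genes, and all these shares are near the background. The chaperone genes PTGES3, HSP90AA1 and HSP90AB1 fell in both arms. PTGES3, which encodes the HSP90 cochaperone p23, fell by 1.57 in COMBO (SE 0.06, adjusted p = 4.82e-15) and by 1.29 in GSK. HSP90AA1 fell by 1.30 (SE 0.04, adjusted p = 1.43e-17) and 0.63 in the same arms. The coactivator gene NCOA2 rose, by 1.06 ± 0.07 in COMBO (adjusted p = 3.29e-11) and 0.75 in GSK.

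Relatives of AHR and ARNT in the bHLH-PAS family numbered 13 genes, of which 9 were tested. In GSK 8 were called, 6 higher and 2 lower, where the background was 75.8%, and in COMBO 6, 5 higher and 1 lower, where it was 82.4%. The medians were 0.35 and 0.20, and 4 were called in GDC against a background of 43.0%. ARNT2, the paralogue of ARNT, rose by 2.38 ± 0.08 in COMBO (adjusted p = 6.69e-16), from 9.74 ± 0.661 to 51.6 ± 5.27 CPM. It rose in GSK by 1.75 and in GDC by 0.95. EPAS1, the hypoxia factor HIF-2A, rose by 1.99 ± 0.14 in COMBO (adjusted p = 4.32e-11) and 1.75 in GSK. ARNTL2, a clock partner, fell by 1.0 in COMBO (SE 0.09, adjusted p = 1.90e-09) and by 0.50 in GSK.

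NQO1 was also read beside NRF2 and 17 more of its genes and regulators. Of these 18 genes 17 were tested. Without AKR1C1, which passed the filter through GSK126 arms only, 11 of 16 were called in GDC, 3 higher and 8 lower (background 43.0%). In GSK 12 were called, 5 higher and 7 lower (75.8%), and in COMBO 15, 5 higher and 10 lower (82.4%). The medians were -0.21, -0.06 and -0.50. GCLM, a subunit of the enzyme that starts glutathione synthesis, fell by 1.40 in COMBO (SE 0.05, adjusted p = 2.88e-15), and SRXN1, which repairs oxidized peroxiredoxins, fell by 1.32 (SE 0.05, adjusted p = 7.28e-16). AKR1C1, an aldo-keto reductase of steroids, had 0.182 ± 0.0250 CPM in DMSO and 1.86 ± 0.306 in COMBO, is given without a test, and has close paralogues. NFE2L2, which encodes NRF2, fell by 0.35 in GSK and by 0.55 in COMBO. HMOX1, FTL and FTH1 were among the 5 that rose in COMBO, by 1.27, 1.15 and 0.81. In GSK these genes rose by 0.94, 0.73 and 0.75, so the list was split in direction.

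Enzymes that make or remove tryptophan metabolites, some of them ligands of the receptor, numbered 10 genes. Of these, 6 were tested. IL4I1, an oxidase that yields receptor ligands, passed the filter only through arms without GSK126 and is given without a test, at 0.748 ± 0.284 CPM in DMSO and 0.209 ± 0.141 in COMBO. Of the other 5, 0 were called in GDC by edgeR (background 43.0%) and 0 by DESeq2, with 0 at an unadjusted p under 0.05. In GSK 3 of the 5 were called, 1 higher and 2 lower (background 75.8%). In COMBO 5 were called, 1 higher and 4 lower (82.4%), and the medians in GSK and COMBO were -0.21 and -0.43. IDO1 had 0 reads in all 12 libraries, and TDO2 had at most 16 in any library. AADAT fell by 0.92 in COMBO (SE 0.05, adjusted p = 3.50e-12), and KYNU, which removes kynurenines, rose by 1.62 ± 0.19 (adjusted p = 1.06e-07).

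Cytochrome P450 genes outside the CYP1 family numbered 52, of which 26 were tested. Of the 26, 8 passed the filter only through GSK126 arms and CYP11A1 only through the others. Of the 17 that remained, 14 were called in GSK, 11 higher and 3 lower, and 14 in COMBO, 12 higher and 2 lower. The share called was 82.4% in each, near the background of 75.8% and 82.4%. Most of these calls were higher, whereas over the 12956 genes slightly more were lower than higher in both arms. This difference in direction was not tested. The medians were 0.45 and 0.58, and 5 were called in GDC, where the background was 43.0%. CYP2E1, an ethanol-oxidizing enzyme of the liver, rose by 3.45 ± 0.21 in COMBO (adjusted p = 3.37e-12), from 0.690 ± 0.0513 to 7.81 ± 0.182 CPM. CYP2S1 rose there too, as given above. CYP4F12, CYP4F3 and CYP2W1 are among the 8 and are given without a test. CYP4F12 had 0.239 ± 0.208 CPM in DMSO and 2.32 ± 0.319 in COMBO, CYP4F3 had 0.515 ± 0.212 and 2.06 ± 0.468, and CYP2W1 had 0.0553 to 0.316 and 0.665 to 1.60 over 3 libraries each.

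Because CYP1A2 is a liver gene, hepatocyte markers are given beside it. The summed level of 14 such markers was 10.7 to 11.9 CPM in DMSO, 10.8 to 11.5 in GDC, 21.5 to 23.8 in GSK and 21.7 to 25.6 in COMBO. Only 4 of 14 averaged at least 1 CPM in GSK and in COMBO, and FGB was at 0 in all 12 libraries. The defining markers ALB and HNF4A had at most 8 and 1 reads in any library. The marker CYP2E1 also belongs to the P450 genes above and reached 7.81 CPM of the sum in COMBO. A list of 9 stromal and blood markers summed to 15.04 to 16.8 CPM in DMSO and 16.9 to 19.3 in GDC. In GSK the sum was 33.7 to 47.0 and in COMBO 35.4 to 55.7. COL1A1 and CD68 were the 2 of 9 at 1 CPM or more in each arm, and CD3E was at 0 throughout. COL1A1 averaged 10.5 CPM in DMSO, 30.3 in GSK and 35.8 in COMBO, and CD68 averaged 5.31, 8.32 and 8.07 in the same arms. Whether these markers have a part in the CYP1A2 result was not tested.

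The genes around CYP1A2 did not share its change in size. Within 250 kb, 14 genes other than CYP1A1 were in the files and 12 were tested. In COMBO against DMSO 10 of 11 were called (background 82.4%), 7 higher and 3 lower, without LMAN1L. LMAN1L, at 0.938 ± 0.311 CPM in COMBO and a log2 change of 1.87, passed the filter through GSK126 arms only and has no test here. The lowest of the others was RPP25, at -1.03 ± 0.14 (adjusted p = 1.10e-06). ARID3B and C15orf17 rose by 0.92 each, and SCAMP5, CLK3, ULK3, EDC3 and SCAMP2 rose by 0.12 to 0.78. CSK and COX5A fell by 0.58 and by 0.75, and MPI, at -0.08, did not pass (adjusted p = 0.169). EDC3 and CSK, whose starts are the nearest on either side of the pair, changed by 0.29 and -0.58. Starts of CPLX3 and MIR4513 lie in the same window, and both were too low to test.

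**Figure D5:**
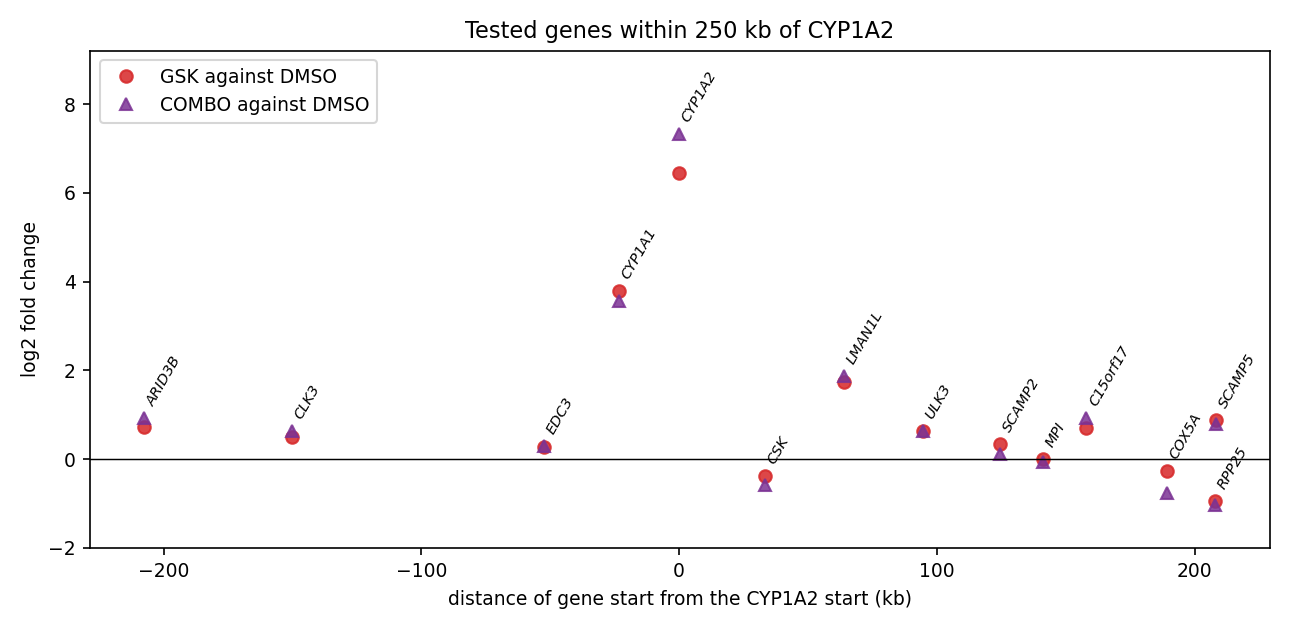
Log2 fold change of the tested genes within 250 kb of CYP1A2 (vertical axis) against the distance of each gene's start from that of CYP1A2 in kb (horizontal axis), in GSK (circles) and COMBO (triangles). CYP1A2 and CYP1A1, 23.3 kb apart, stand above all neighbours, and LMAN1L, at 1.87 in COMBO, is next but passed the low-count filter through GSK126 arms only.

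The genes closest to CYP1A2 in pattern and size of change over the 12 libraries were not members of the receptor group. Likeness was the root-mean-square difference of log2 CPM after subtracting the DMSO mean of each gene, so a smaller value is closer. This measure depends on the size of the change, so a gene that rose in the same libraries but by less ranks as less like. The closest were C11orf92 at 0.569, SEMG2 at 0.712, GAB3 at 0.787, ADRA2A at 0.792 and C11orf93 at 0.874. Of these, SEMG2, GAB3 and C11orf93 passed the low-count filter through the GSK126 arms only, as CYP1A2 did. Their high values there were thus needed for a place in the ranking. CYP1A1 came 77th at 2.25, AHRR 1131st at 3.51 and AHR 2362nd at 3.94, while CYP1B1 stood 12761st at 5.33. C11orf92 and ADRA2A remained among the closest 5 with a prior count of 0.25. With Pearson's r, which does not depend on the size of the change, 0 of the 5 remained, and ranks of the receptor genes by r were not computed. C11orf92 and C11orf93 overlap on chromosome 11, so their reads may be divided uncertainly. C11orf92 had 9.50 ± 0.710 CPM in DMSO and 1024 ± 42.6 in COMBO.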

How the data were processed

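Per the labels and the study's methods, the authors aligned reads to hg38 with STAR and counted them per gene with HTSeq, and the deposited values are raw counts. Versions, annotation, strand use and read length are not given in the sources used here. A deposited table of counts normalized with DESeq2 was not used. Summary lines were left out. The 23228 genes were filtered by filterByExpr to 14189, which needed at least 0.705 CPM in at least 3 libraries. Counts were scaled by TMM and tested with edgeR 4.0.16 (glmQLFit, glmQLFTest, R 4.3.3) in a single fit of all 12 libraries with 1 coefficient per arm. Tests were two-sided, with Benjamini-Hochberg adjustment over all tested genes and a threshold of 0.05. The scripts were tested on simulated data. GENCODE 44 placed 21204 of the symbols (91.3%), and exon lengths came from it. Replicates differed by more than sampling noise (chi-square per degree of freedom 1.80 to 6.49) and each was counted.

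Members and lists were chosen with earlier results of these data known. Named from each list were the 3 called genes with the largest absolute change in COMBO, 5 from the other P450 genes, the genes within 250 kb of CYP1A2 and the 5 genes most like it. Genes that passed the filter only through the arms with GSK126, or only through those without, are given without a test, a choice made after seeing the data. Genes named beyond the naming rule were chosen after their values were seen. Log2 CPM for likeness used a prior count of 2. Alternatives were DESeq2 1.42.0, its size factors, library totals, a filter at a mean of 1 CPM, no filter, a replicate block, the compared arms only, fits without each library, a prior count of 0.25 and Pearson's r. Some genes of the lists are not reported by name here.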

Additional observations from a re-analysis of the deposited data

Results flagged for a closer look

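For NQO1, the change in COMBO went beyond what adding GDC and GSK gives, with an interaction of -0.25 on the log2 scale (SE 0.07, adjusted p = 0.0145 by the edgeR quasi-likelihood test). NQO1 fell by 0.26 in GDC, by 0.18 in GSK and by 0.70 in COMBO. Over 18 alternatives the interaction ran from -0.25 to -0.14, with adjusted p from 0.0114 to 0.218, and 10 of them lost the call. Groups of 3 libraries were too small for a search for outlying samples.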

How the results depend on the processing

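Under 19 alternatives the CYP1A2 change stayed at 6.24 to 6.73 in GSK and 7.14 to 7.63 in COMBO. The 42 tested fold changes of the other 7 genes kept their direction and side of the threshold in 721 of 791 refits, lost the call in 63, gained it in 7 and reversed in 0. The count of genes called in GDC, 3, was 1 with DESeq2, 1 without DMSO C, 1 without GDC A, and 1 to 3 over the fits that left out a library. The count in GSK, 7, was 6 in most alternatives, among them DESeq2 and library totals, and that in COMBO, 7, was 6 without DMSO B. The interaction count, 1, was 0 with a mean of at least 1 CPM (NQO1 at -0.19, adjusted p = 0.0672 by edgeR) and 0 to 2 without a library. Counts for lists moved by more than 1.5 times in 36 of 678 refits, of which none was in GSK or COMBO against DMSO. The 6 P450 genes called in GDC became 2 to 3 in 2 of them. Leaving out genes that passed the filter on 1 side only, chosen after seeing the data, left 3 of 6 calls in GSK and 4 of 7 calls in COMBO among other receptor targets, and took those among P450 genes from 22 to 14 in both. Scaling by library totals moved the median of all genes in GSK from 0.06 to 0.21 and that in COMBO from 0.05 to 0.26, and relative to it the NQO1 value in GSK is a decrease in both scalings. Most same-lettered libraries did not deviate together (18 pairs, median r -0.02, range -0.08 to 0.19), so letters were not taken as pairs. The 2 pairs over 0.1 were both of GDC with COMBO, A at 0.12 and B at 0.19, and C of these arms was at 0.07. Of 12 libraries 6 correlated best with one of their own letter. With a replicate block the counts were 3 in GDC, 7 in GSK, 7 in COMBO and 1 for the interaction, and it changed no call. The compared arms alone cannot give the interaction, so that fit was not run for it. CYP1A2 rests on 25 reads in DMSO, so its fold change is limited by depth there.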
